A study of Homo sapiens with 6 samples.

Results

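Matrix proteins and the enzymes that crosslink, cut or protect them were examined in liver metastases of SW480, a long-established cell line from a human colorectal tumour. The set holds 49 genes, chosen by symbol: collagens, matrix glycoproteins, lysyl oxidases, matrix metalloproteinases (MMPs), their tissue inhibitors (TIMPs) and ADAMTS1. All 49 had a row among the 58884 genes of the count table, 47 had a count in at least 1 library, and 31 had enough counts to be tested. The study compared cells with a control guide RNA (sgCtrl, 3 libraries) and cells with a guide RNA against ITPR3 (sgITPR3, 3 libraries), a gene that encodes a calcium release channel of the endoplasmic reticulum. Cells of both groups were placed in the portal blood of NSG mice, which lack a working adaptive immune system, and grew as liver tumours. Both groups went through the same recovery: collagenase IV digestion, red cell lysis, a density gradient and depletion of mouse cells. Guide positions, the number of clones and the animal behind each library do not appear in the labels, and the p-values therefore describe no more than the spread among these 6 libraries.

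The extracellular matrix is the protein mesh around cells. Fibrillar collagens give it tensile strength, collagen IV, laminins, nidogen and perlecan form the basement membrane under epithelia, and glycoproteins such as fibronectin and tenascin C link the mesh to receptors on cells. Lysyl oxidases crosslink collagen, MMPs cut matrix proteins, and TIMPs block MMPs. In colorectal tumours much of the collagen comes from fibroblasts, while carcinoma cells make basement membrane components and some glycoproteins and proteases of their own.

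Libraries held 19140055 to 23943797 counts. ITPR3 itself was 2.34-fold lower in sgITPR3 (edgeR adjusted p = 1.28e-07), and its 3' tags need not cover the edited site. Levels are in CPM, the count divided by the scaled library size and multiplied by 1000000. They are means ± SD (n = 3 libraries in each group) unless every library is listed, in the order of replicates 1 to 3. Since each tag comes from the 3' end of a transcript, counts were not divided by transcript length, and levels of different genes are not compared, except that the counts of chains of the same collagen are set side by side. A gene rose or fell here if its adjusted p in the quasi-likelihood test of edgeR, over all 15804 genes tested, was under 0.05. Fewer cells of a type and less RNA per cell cannot be told apart in such bulk samples. Markers of fibroblasts, endothelium and macrophages were low, and hepatocyte markers were present. These are human genes, while host cells of the tumours are mouse cells, and how mouse reads were handled is not given. The marker levels therefore do not measure how many such cells were present. Of 13 fibroblast and stellate cell markers LUM, PDPN and FAP had no count, 2 had a mean of over 1 CPM, and the summed level was 14.4 to 16.2 CPM in sgCtrl and 17.6 to 19.3 CPM in sgITPR3, most of it from ACTA2. The 9 endothelial markers summed to at most 1.78 CPM and the 11 macrophage markers to at most 1.54 CPM in any library, with CLEC4G, EMCN, C1QA, C1QB and C1QC at no count. The 15 hepatocyte markers summed to 79.0 to 350.9 CPM in sgCtrl and 219 to 399 CPM in sgITPR3, with APOC3 at no count. All 10 colorectal epithelial markers had counts, and they summed to 2420 to 2807 CPM in sgCtrl and 1996 to 2051 CPM in sgITPR3. The part of these marker differences in the results below was not tested, apart from the fits with ALB as a covariate.

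Of the 31 matrix genes tested, 11 fell, 6 rose and 14 did not pass. These are 54.8% called, beside 23.5% of all genes tested. A gene can pass the low-count filter through the group where it is high, so these shares describe the tested genes only. For falls alone the share over all genes was 11.9%, and for rises it was 11.6%. At a change of at least 2-fold, 5 matrix genes fell and 1 rose, beside 1.73% and 4.31% of all genes. The median log2 fold change of the 31 was -0.19, beside 8.59e-04 over all genes tested. Groups did not overlap in 14 genes that were lower and 7 that were higher in sgITPR3, tested genes only, beside 19.7% and 19.6% of all genes. The 49 genes together summed to 2207 to 2266 CPM in the sgCtrl libraries and 1588 to 1606 CPM in the sgITPR3 libraries. TGFBI alone made up 66.5% of that drop, and without it the sums were 1493 to 1566 CPM against 1271 to 1337 CPM.

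**Figure D1:**
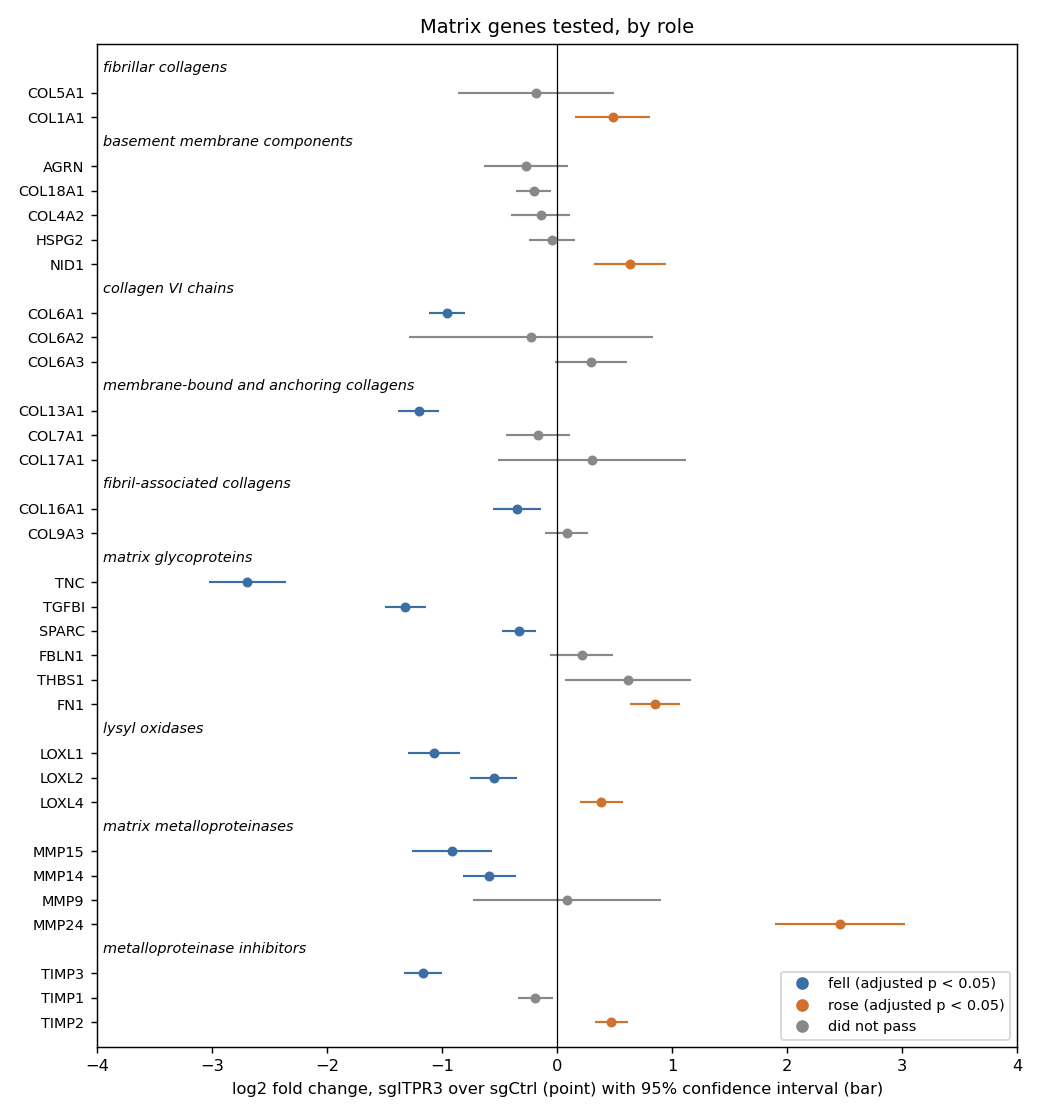
Log2 fold change of sgITPR3 over sgCtrl (horizontal axis, points) with its 95% confidence interval (bars) for the 31 matrix genes tested, grouped by role. Blue genes fell, orange genes rose and grey genes did not pass the test; TNC, at -2.69, and MMP24, at 2.46, lie farthest from 0 on either side.

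The promoters of 3 genes with the largest changes, TNC and TGFBI among the falls and MMP24 as the largest rise, are shown with that of MMP7, which had no count. They are RefSeq windows of build GRCh38.p14, 250 bases before to 50 bases after the annotated start, 5′ to 3′ on the strand of the gene. A capital on its own marks the first transcribed base, and longer capitals mark matches to the motifs given after them. TNC lies at chr9:115118108-115118407 (minus strand), TGFBI at chr5:136028738-136029037 (plus strand), MMP24 at chr20:35226440-35226739 (plus strand) and MMP7 at chr11:102530698-102530997 (minus strand).
TNC: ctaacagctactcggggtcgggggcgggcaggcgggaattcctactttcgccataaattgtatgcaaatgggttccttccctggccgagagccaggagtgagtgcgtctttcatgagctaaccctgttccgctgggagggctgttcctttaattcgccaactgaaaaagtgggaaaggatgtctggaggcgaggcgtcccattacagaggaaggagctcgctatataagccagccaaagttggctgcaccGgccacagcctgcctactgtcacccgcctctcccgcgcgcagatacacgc
TGFBI: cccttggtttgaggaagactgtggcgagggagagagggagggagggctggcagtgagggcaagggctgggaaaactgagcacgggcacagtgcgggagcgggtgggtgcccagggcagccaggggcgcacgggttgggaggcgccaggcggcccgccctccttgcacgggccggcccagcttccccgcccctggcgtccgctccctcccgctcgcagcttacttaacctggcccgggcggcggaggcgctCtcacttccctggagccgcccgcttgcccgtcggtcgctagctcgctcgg
MMP24: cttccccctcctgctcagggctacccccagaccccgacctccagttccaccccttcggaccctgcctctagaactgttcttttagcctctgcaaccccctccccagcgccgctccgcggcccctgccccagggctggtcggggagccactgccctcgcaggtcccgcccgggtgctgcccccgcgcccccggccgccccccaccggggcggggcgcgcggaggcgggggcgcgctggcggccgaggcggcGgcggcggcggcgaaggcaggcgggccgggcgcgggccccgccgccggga
MMP7: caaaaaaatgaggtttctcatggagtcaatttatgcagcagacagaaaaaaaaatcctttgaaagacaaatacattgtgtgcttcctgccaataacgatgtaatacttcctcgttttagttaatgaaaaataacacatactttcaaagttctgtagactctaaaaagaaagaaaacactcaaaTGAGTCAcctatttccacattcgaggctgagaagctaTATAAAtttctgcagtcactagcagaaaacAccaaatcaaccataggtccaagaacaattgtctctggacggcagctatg
The windows of TGFBI and MMP24 consisted of G and C to 72.7% and 80.0%, that of TNC to 57.3% and that of MMP7 to 35.7%. AP-1 sites (TGAGTCA or TGACTCA, either strand) and a TATA box (TATAAA, strand of the gene) were searched in 40 windows of 35 of the 49 genes. The other genes had no usable window or lay on a chromosome that was left out, and LOXL2, which fell, was among them. The shares over all promoter windows need not carry the same limit. An AP-1 match was found in 1 window (2.5%), that of MMP7, beside 4.95% of all 35097 promoter windows, and it begins 67 bases before the start. A TATAAA match was found in 7 windows (17.5%), beside 7.33% of all. Those of MMP7, MMP10, THBS2 and COL6A2 begin 29 to 32 bases before the start, and those of COL13A1, COL17A1 and COL18A1 begin 204 to 236 bases before it. Only the exact letters TATAAA were counted, so the tatataa in the TNC window above was not a match. None of the 9 windows searched for genes that fell and none of the 4 for genes that rose held an AP-1 match. That says only that these letters are not in these windows.

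Among the matrix glycoproteins 3 fell and 1 rose of 6 tested, which is 66.7% called, beside 23.5% of all genes. Tenascin C, encoded by TNC (ENSG00000041982, chromosome 9, 115019578 to 115118257), is a large glycoprotein of wound and tumour matrix that loosens the hold of cells on fibronectin. It was counted at 41.4, 28.6 and 31.1 CPM in sgCtrl and at 5.66, 4.29 and 5.72 CPM in sgITPR3. Every sgITPR3 library lay far below every sgCtrl library, and the sgCtrl libraries differed among themselves more than the sgITPR3 libraries did. TNC was 6.47-fold lower (log2 fold change -2.69 ± 0.155 SE, adjusted p = 2.92e-08 in edgeR).

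TGFBI (ENSG00000120708, chromosome 5, 136028895 to 136063818) encodes a collagen-binding protein that TGF-beta induces. It was at 699.9, 725.5 and 713.5 CPM in sgCtrl and at 269.6, 260.0 and 326.5 CPM in sgITPR3. The groups did not overlap, and sgITPR3 replicate 3 was the highest of its group. TGFBI was 2.50-fold lower (log2 fold change -1.32 ± 0.083 SE, adjusted p = 5.76e-08 in edgeR). SPARC, which encodes a collagen-binding protein that acts in matrix assembly, was also lower, by less. It was at 265.5 ± 10.2 CPM in sgCtrl and 210.6 ± 14.4 CPM in sgITPR3 (log2 fold change -0.33 ± 0.070 SE, adjusted p = 0.00327 in edgeR).

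Fibronectin moved the other way. FN1 (ENSG00000115414, chromosome 2, 215360440 to 215436172) was at 18.6, 20.6 and 17.3 CPM in sgCtrl and at 38.2, 32.3 and 31.4 CPM in sgITPR3. All sgITPR3 libraries were above all sgCtrl libraries, and the difference was 1.80-fold (log2 fold change 0.85 ± 0.103 SE, adjusted p = 3.80e-05 in edgeR). The hepatocyte transcript ALB was at 33.8, 169.7 and 21.6 CPM in sgCtrl and 231.6, 152.6 and 111.5 CPM in sgITPR3, so its groups overlapped. Once ALB was a covariate, the FN1 estimate was smaller (log2 fold change 0.68, edgeR adjusted p = 0.00138). The part of hepatocyte RNA, which also carries FN1, was not tested further.

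Thrombospondin 1, encoded by THBS1, is a glycoprotein that binds CD47 and activates TGF-beta. It was at 3.12, 2.19 and 2.83 CPM in sgCtrl and at 3.46, 3.32 and 5.77 CPM in sgITPR3. The groups did not overlap, but the gene did not pass (log2 fold change 0.62, 95% interval 0.068 to 1.16, edgeR adjusted p = 0.0974), and without sgITPR3 replicate 3 the log2 fold change was 0.32. FBLN1, which encodes the basement membrane and elastic fibre protein fibulin 1, was at 11.5 ± 1.66 and 13.3 ± 0.969 CPM (log2 fold change 0.21, 95% interval -0.062 to 0.49, edgeR adjusted p = 0.256). The other 4 glycoprotein genes had few counts and were not tested. FBN1, which encodes the microfibril protein fibrillin 1, had 23 counts over the 6 libraries. FBN2 had 6 counts, all in sgCtrl replicate 1, THBS2 had 5, all in sgITPR3, and SPP1, which encodes osteopontin, had 1.

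**Figure D2:**
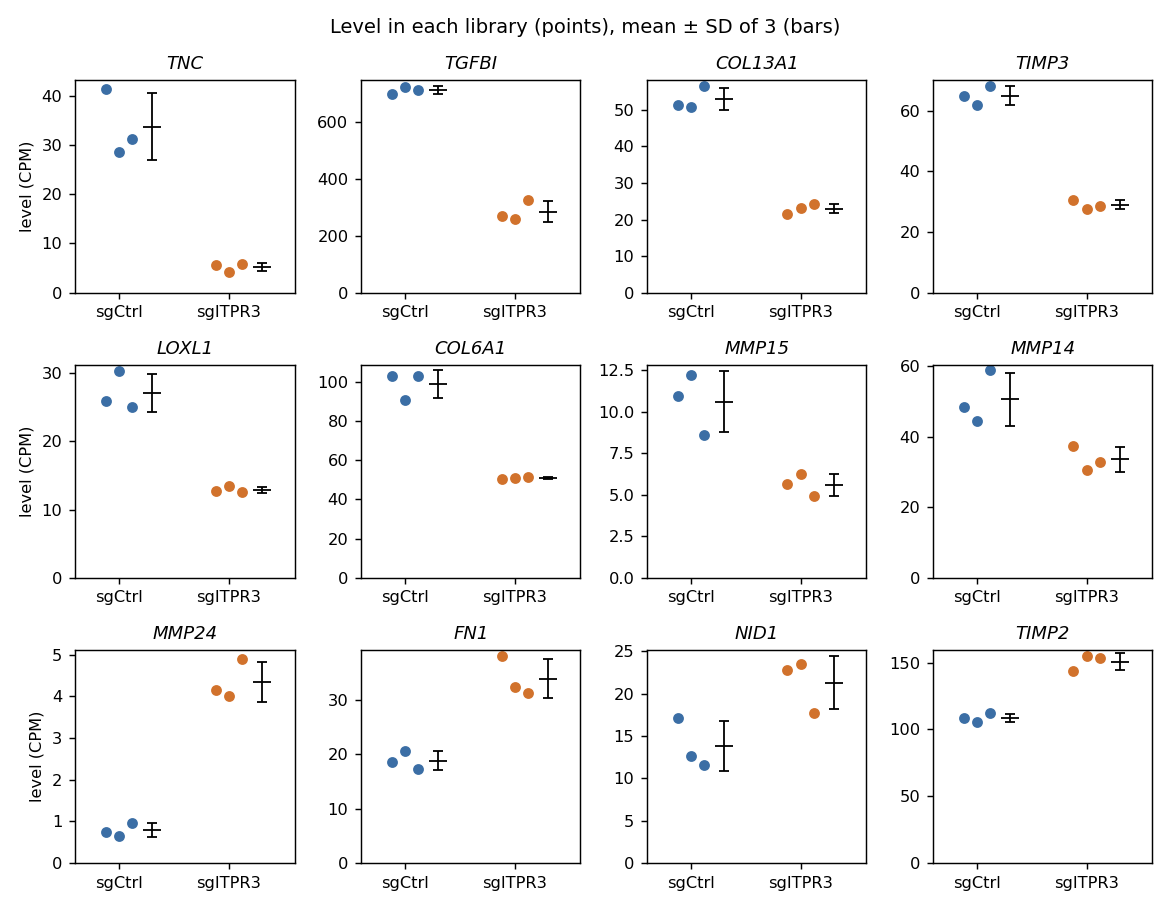
Level in CPM (vertical axes, each from 0) of 12 matrix genes in each library; blue points are sgCtrl, orange points sgITPR3, and the black bars are mean ± SD over 3 libraries. The 12 were picked from genes that fell or rose, so the lack of overlap in every panel follows largely from that choice. Over all genes, groups did not overlap in 19.7% (lower in sgITPR3) and 19.6% (higher). The sgITPR3 libraries are lower in the first 8 panels and higher for MMP24, FN1, NID1 and TIMP2.

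Of 5 basement membrane genes tested, 1 rose and 4 did not pass, which is 20% called, near the 23.5% over all genes. NID1 encodes nidogen 1, which ties laminin to collagen IV. It was at 17.2, 12.6 and 11.6 CPM in sgCtrl and at 22.8, 23.5 and 17.7 CPM in sgITPR3 (log2 fold change 0.63 ± 0.148 SE, adjusted p = 0.00655 in edgeR). Its highest sgCtrl library, replicate 1, lay just under its lowest sgITPR3 library, replicate 3, and with ALB as a covariate its call ended (log2 fold change 0.62, edgeR adjusted p = 0.0508).

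COL18A1, which encodes the collagen that releases endostatin, was at 89.1, 79.0 and 89.8 CPM in sgCtrl and 76.3, 72.2 and 75.2 CPM in sgITPR3. The sgITPR3 libraries were all lower, by little, and the gene did not pass (log2 fold change -0.21, 95% interval -0.36 to -0.051, edgeR adjusted p = 0.0531). Without sgCtrl replicate 2 it passed (log2 fold change -0.27, edgeR adjusted p = 0.0135). HSPG2, the perlecan gene, was at 46.1 ± 3.55 and 44.6 ± 5.08 CPM (log2 fold change -0.046, 95% interval -0.24 to 0.15). AGRN, the agrin gene, was at 6.18 ± 0.999 and 5.12 ± 0.264 CPM, and COL4A2 at 23.2 ± 3.88 and 20.95 ± 1.83 CPM, with edgeR adjusted p-values of 0.280 and 0.418. Both intervals of the log2 fold change include 0, from -0.64 to 0.096 for AGRN and from -0.40 to 0.11 for COL4A2.

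Collagen IV is built as a mixed trimer of COL4A1 and COL4A2 chains in most basement membranes, and the genes lie head to head on chromosome 13. The starts in RefSeq are 127 bases apart, so their promoter windows share 226 bases. The shared stretch is shown because counts of the 2 genes differed so much. It is chr13:110307108.0-110307333.0 of GRCh38.p14, on the plus strand, with capitals from the COL4A1 start to the COL4A2 start.
COL4A1-COL4A2: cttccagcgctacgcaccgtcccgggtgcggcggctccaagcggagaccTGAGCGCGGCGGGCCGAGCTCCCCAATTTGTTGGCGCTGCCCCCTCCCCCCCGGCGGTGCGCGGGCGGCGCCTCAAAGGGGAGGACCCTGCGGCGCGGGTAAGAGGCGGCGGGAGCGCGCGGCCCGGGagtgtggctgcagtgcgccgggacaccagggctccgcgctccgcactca
COL4A2 had 397, 412 and 517 counts in sgCtrl and 503, 466 and 432 in sgITPR3. COL4A1 had 1, 3 and 5 counts in sgCtrl and 8, 7 and 5 in sgITPR3. The gap between these counts was present in all 6 libraries and in both groups. A count of 3' tags also depends on how the 3' end of a gene is annotated, so few counts of COL4A1 need not mean little transcript, and this was not tested. The other head-to-head pair, COL4A5 and COL4A6 on chromosome X, has starts 380 bases apart. COL4A5 had 8, 2 and 0 counts in sgCtrl and 11, 18 and 16 in sgITPR3, and COL4A6 had 4 counts in sgCtrl and 1 in sgITPR3. Both were below the low-count filter. Without that filter COL4A5 passed (log2 fold change 1.90, edgeR adjusted p = 0.0409). Adjusted p-values of the unfiltered edgeR fit are on another scale than those of the main fit. For TNC they were 3.47e-97 and 2.92e-08, and for COL1A1 0.0437 and 0.0331. COL4A5 also passed without sgCtrl replicate 1, but that fit drops the library with 8 counts, the most in sgCtrl. That pass therefore adds no support.

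Other collagens whose chains assemble in 1 molecule were also counted unevenly. Collagen VI, a microfibril collagen of the cell surface, needs the chains of COL6A1, COL6A2 and COL6A3 (or a relative of the last). COL6A1 (ENSG00000142156, chromosome 21, 45981737 to 46005050) was at 103.2, 91.03 and 102.9 CPM in sgCtrl and at 50.4, 51.2 and 51.4 CPM in sgITPR3. The sgITPR3 libraries were almost level with each other and all below sgCtrl, 1.94-fold lower (log2 fold change -0.96 ± 0.072 SE, adjusted p = 3.84e-07 in edgeR). COL6A3 was at 8.93 ± 0.691 and 10.9 ± 1.84 CPM (log2 fold change 0.29, 95% interval -0.016 to 0.61, edgeR adjusted p = 0.162). COL6A2 had 34 counts over each group's 3 libraries (log2 fold change -0.23, 95% interval -1.29 to 0.84).

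Of 5 fibrillar collagen genes, 2 had enough counts to be tested, and here too few counts need not mean little transcript. COL1A1, a chain of collagen I, was at 5.81, 5.52 and 5.50 CPM in sgCtrl and at 8.59, 8.01 and 6.86 CPM in sgITPR3. It rose (log2 fold change 0.48 ± 0.152 SE, adjusted p = 0.0331 in edgeR), with no overlap between the groups. The call of COL1A1 ended in 5 of the 6 fits that leave out 1 library, all but the one without sgITPR3 replicate 3 (edgeR adjusted p from 0.0573 to 0.132 in those 5), and with ALB as a covariate (0.214). Its partner chain COL1A2 had 16 counts in sgCtrl and 29 in sgITPR3. COL3A1 had 20 and 54 counts and COL5A2 had 2 and 12, all below the filter. COL5A1, a chain of the collagen that starts fibrils, was tested and did not pass (1.65 ± 0.302 and 1.44 ± 0.400 CPM, edgeR adjusted p = 0.720). Of the 3 fibroblast and stellate cell markers tested, DES rose from 1.68 ± 0.720 to 3.89 ± 0.438 CPM, while ACTA2 (12.4 and 12.9 CPM) and RGS5 did not pass. DCN had no count in sgCtrl and 0.0818 CPM on average in sgITPR3, and the part of such cells in these low collagen counts was not tested.

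**Figure D3:**
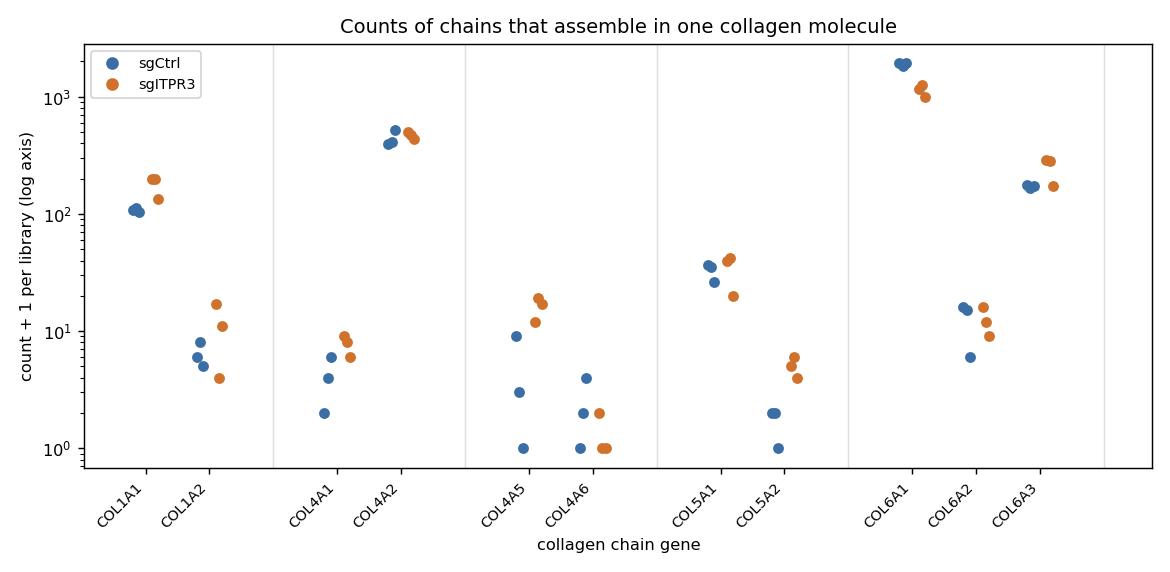
Count + 1 per library (vertical log axis) of collagen chain genes, with chains of 1 collagen molecule next to each other; blue points are sgCtrl and orange points sgITPR3. COL4A2 lies at 397 to 517 counts where COL4A1 has at most 8, and of the chains shown COL6A1 has the most counts, in every library.

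Of 3 membrane-bound and anchoring collagens tested, 1 fell and 2 did not pass, which is 33.3% called, beside 23.5% of all genes. COL13A1 (ENSG00000197467, chromosome 10, 69801867 to 69964275) encodes a collagen that spans the cell membrane and sits at sites of adhesion. It was at 51.4, 50.9 and 56.5 CPM in sgCtrl and at 21.6, 23.2 and 24.2 CPM in sgITPR3. The groups were well apart, with a 2.30-fold difference (log2 fold change -1.20 ± 0.084 SE, adjusted p = 1.57e-07 in edgeR). COL17A1, the membrane collagen of hemidesmosomes, was at 0.903 ± 0.079 and 1.11 ± 0.421 CPM (log2 fold change 0.30, 95% interval -0.51 to 1.12). COL7A1, which forms the anchoring fibrils under skin and other epithelia, was at 10.5 ± 0.681 and 9.41 ± 0.978 CPM (log2 fold change -0.16, 95% interval -0.44 to 0.11).

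Of the collagens that decorate fibrils, COL9A3, a chain of the cartilage collagen IX, was at 198.0, 231.8 and 180.1 CPM in sgCtrl and 226.1, 219.9 and 199.5 CPM in sgITPR3. These ranges overlapped (log2 fold change 0.082, 95% interval -0.11 to 0.27). COL16A1 went from 22.7 ± 1.88 to 17.8 ± 0.587 CPM and fell (log2 fold change -0.35 ± 0.098 SE, adjusted p = 0.0176 in edgeR). The COL16A1 call ended without sgCtrl replicate 1, without sgITPR3 replicate 1 and without sgITPR3 replicate 2 (edgeR adjusted p = 0.0683, 0.0694 and 0.0515). With ALB as a covariate the call also ended (edgeR adjusted p = 0.130), at a log2 fold change of -0.323 ± 0.134 SE. COL12A1 had 11 counts in sgCtrl and 10 in sgITPR3.

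Lysyl oxidases oxidise lysines of collagen and elastin so that the fibres crosslink. LOX, the founding member, had 6 counts in sgCtrl and 15 in sgITPR3 and was not tested. SRFBP1, with 4090 counts, overlaps LOX on the opposite strand, and the strand setting of the counts is not given. Few counts of LOX therefore need not mean little transcript. All 3 relatives of LOX in the set were tested and changed, 2 down and 1 up, beside 23.5% of all genes called. LOXL3, a relative outside the set, was tested and did not pass (log2 fold change -0.64, edgeR adjusted p = 0.054). LOXL1, which acts on elastic fibres (ENSG00000129038, chromosome 15, 73925989 to 73952137), was at 26.0, 30.3 and 25.1 CPM in sgCtrl and at 12.8, 13.4 and 12.5 CPM in sgITPR3. Each sgITPR3 library lay below each sgCtrl library, 2.10-fold on average (log2 fold change -1.07 ± 0.104 SE, adjusted p = 4.54e-06 in edgeR). The antisense gene LOXL1-AS1 fell as well, from 103, 87 and 75 counts to 60, 46 and 50 (log2 fold change -0.98, edgeR adjusted p = 0.00607). It overlaps LOXL1 only from 73925989 to 73928248, at the 5' end of both, and both 3' ends lie outside that stretch. Since the strand setting of the counts is not given, reads within that stretch cannot be told apart.

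LOXL2, which crosslinks collagen IV, was at 84.6, 66.8 and 73.5 CPM in sgCtrl and at 48.2, 47.6 and 57.5 CPM in sgITPR3. It fell without overlap between the groups (log2 fold change -0.55 ± 0.096 SE, adjusted p = 8.43e-04 in edgeR). LOXL4 rose from 21.2 ± 0.368 to 27.6 ± 1.36 CPM (log2 fold change 0.38 ± 0.087 SE, adjusted p = 0.0059 in edgeR).

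The metalloproteinases are taken here by how they are held. Most MMPs are secreted, and of the 6 secreted ones in the set only MMP9 was tested. MMP9, a gelatinase, had 50 counts in sgCtrl and 62 in sgITPR3 and did not pass (log2 fold change 0.087, 95% interval -0.73 to 0.91, edgeR adjusted p = 0.898). MMP2, the other gelatinase, had 7, 3 and 2 counts in sgCtrl and 2, 0 and 2 in sgITPR3. MMP1, MMP7, MMP10 and MMP13 lie together on the long arm of chromosome 11, between 102520508 and 102955734. MMP7 and MMP13 had no count in any library, MMP1 had 1 and MMP10 had 3. A count of 0 in a library allows a level of up to 0.121 to 0.161 CPM, which is 3 counts, so MMP7 and MMP13 were not detectable at this depth. No library held more than 2 counts of MMP1 or MMP10.

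The 3 MMPs of the set that stay on the cell membrane all changed, beside 23.5% of all genes called. MMP14, which cuts collagen and activates MMP2, was at 48.4, 44.4 and 58.9 CPM in sgCtrl and at 37.4, 30.5 and 32.8 CPM in sgITPR3. All sgITPR3 libraries were lower (log2 fold change -0.59 ± 0.107 SE, adjusted p = 0.00118 in edgeR). MMP15, a close relative, was 1.89-fold lower, at 10.6 ± 1.85 CPM in sgCtrl and 5.60 ± 0.670 CPM in sgITPR3 (log2 fold change -0.92 ± 0.163 SE, adjusted p = 9.76e-04 in edgeR).

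MMP24 (ENSG00000125966, chromosome 20, 35226654 to 35277000), a membrane MMP known from neurons, where it cuts N-cadherin, had 14, 13 and 18 counts in sgCtrl and 96, 99 and 95 in sgITPR3. Libraries of a group were close to each other and the groups far apart, 5.50-fold higher in sgITPR3 (log2 fold change 2.46 ± 0.264 SE, adjusted p = 1.26e-05 in edgeR). MMP24OS overlaps it on the opposite strand and had 768 to 894 counts in sgCtrl and 851 to 988 in sgITPR3. MMP24OS did not pass (log2 fold change -0.039, 95% interval -0.20 to 0.13, edgeR adjusted p = 0.764), and reads of the 2 genes cannot be told apart where the counting did not use strand.

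The TIMPs moved in different ways. TIMP3 (ENSG00000100234, chromosome 22, 32801701 to 32863043), the inhibitor that stays bound to the matrix and also blocks ADAM proteases, was at 64.9, 61.8 and 68.1 CPM in sgCtrl and at 30.5, 27.6 and 28.7 CPM in sgITPR3. The groups were well apart, 2.25-fold (log2 fold change -1.17 ± 0.078 SE, adjusted p = 1.07e-07 in edgeR). TIMP2, which takes part in the activation of MMP2 by MMP14, rose from 108.6 ± 3.12 to 150.5 ± 6.30 CPM (log2 fold change 0.47 ± 0.066 SE, adjusted p = 1.38e-04 in edgeR). TIMP1, a secreted inhibitor, was at 262.0, 265.4 and 229.8 CPM in sgCtrl and at 223.8, 228.9 and 211.3 CPM in sgITPR3. Its lowest sgCtrl library was just above its highest sgITPR3 library, and it did not pass (log2 fold change -0.19, 95% interval -0.34 to -0.035, edgeR adjusted p = 0.0727). TIMP1 passed in DESeq2 (adjusted p = 0.0461), once ALB was a covariate (edgeR adjusted p = 0.0412) and without sgCtrl replicate 3 (0.0240). ADAMTS1, a secreted protease that cuts proteoglycans, had 9 counts in sgCtrl and 2 in sgITPR3.

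**Figure D4:**
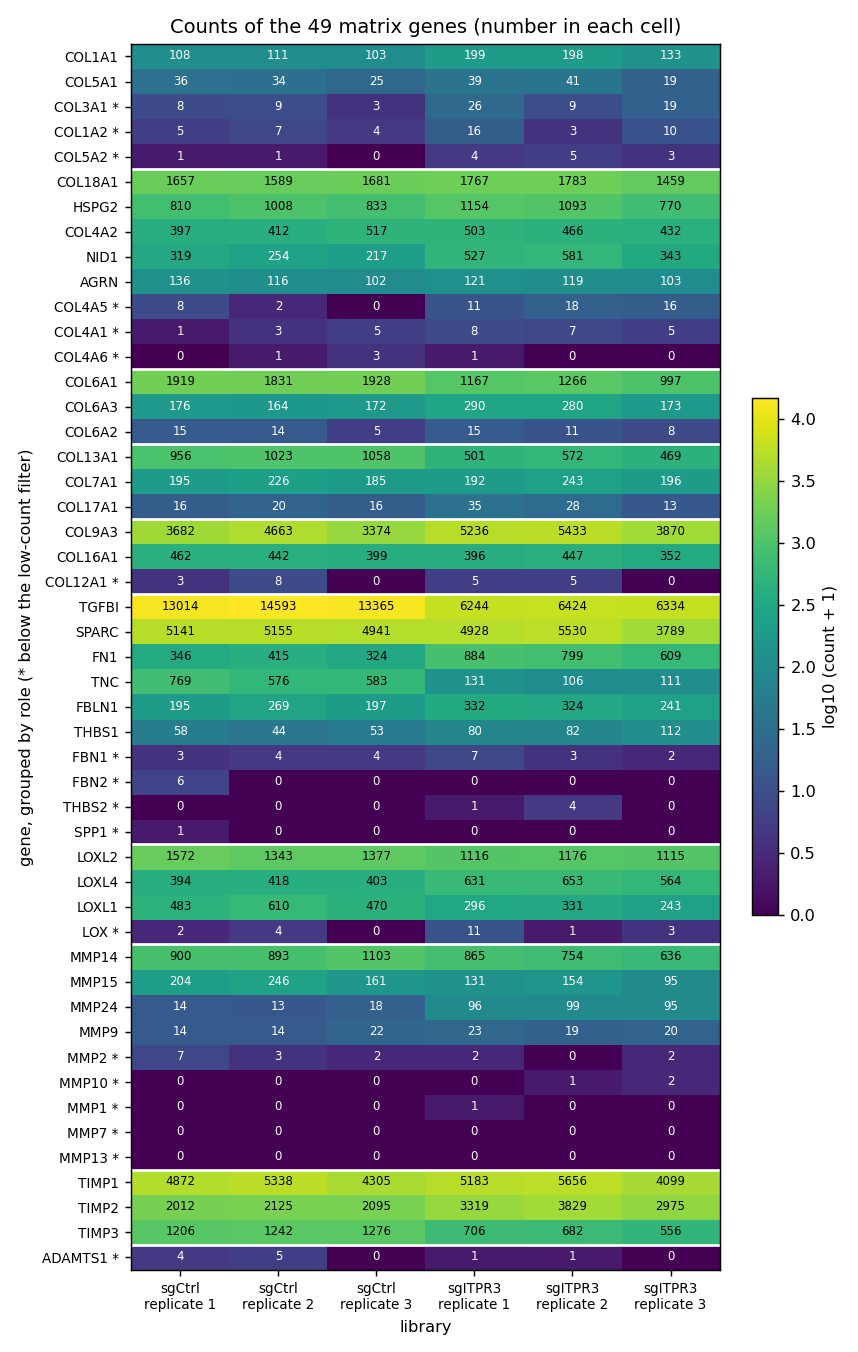
Counts of the 49 matrix genes (rows, grouped by role and ordered by total) in the 6 libraries (columns); colour is log10 of the count + 1 and the number in each cell is the count. An asterisk marks the 18 genes below the low-count filter, among them MMP7 and MMP13 with 0 in every library, while TGFBI reaches 14593 in sgCtrl replicate 2.

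Matrix genes outside the set were described in 5 further lists. Of 25 other collagens only 3 were tested, and 1 rose (33.3%, beside 23.5% of all genes), the fibrillar chain gene COL5A3, from 0.139 ± 0.081 to 0.682 ± 0.170 CPM. COL5A3 had 4, 3 and 1 counts in sgCtrl and 13, 15 and 17 in sgITPR3, so it met the low-count filter through sgITPR3 only. Of 23 tested enzymes and chaperones that make and mature collagen, 3 fell, 3 rose and 17 did not pass, which is 26.1% called, close to the 23.5% over all genes, with a median log2 fold change of -0.14. TGM2, a transglutaminase that crosslinks matrix proteins, fell from 266.3 ± 24.04 to 144 ± 5.47 CPM (log2 fold change -0.89, edgeR adjusted p = 1.24e-06). The collagen hydroxylases PLOD1 and P4HA2, which act on lysine and proline, fell by 0.46 and 0.43 on the log2 scale. P4HB, the disulfide isomerase that partners the prolyl hydroxylases, rose by 0.38.

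Among other glycoproteins and proteoglycans, 27 were tested, of which 5 fell, 8 rose and 14 did not pass. That is 48.1% called, beside 23.5% of all genes, and the median log2 fold change of the 27 was 0.19. CCN4, a target of Wnt signalling, was at 2.11 ± 0.061 CPM in sgCtrl and had 0 counts in all sgITPR3 libraries. It was thus at least 13.6-fold lower against a floor of 3 counts per library (edgeR adjusted p = 7.95e-06). CCN4 met the low-count filter through sgCtrl only, the group where it was high, so its call is description and not support. ECM1, which encodes extracellular matrix protein 1, fell from 9.36 ± 0.888 to 3.50 ± 0.341 CPM. TINAGL1, a basement membrane protein gene, fell by 0.46 on the log2 scale. MATN3, a matrilin gene of cartilage, rose from 7.21 ± 2.12 to 19.1 ± 1.37 CPM.

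Among other metalloproteinases and inhibitors, 17 were tested, of which 3 fell, 5 rose and 9 did not pass. That is 47.1% called, beside the 23.5% over all genes, and the median log2 fold change of the 17 was 0.18. The membrane proteases ADAM15 and ADAM9 fell by 0.86 and 0.47 on the log2 scale, and the secreted proteases ADAMTS19 and ADAMTS8 rose by 1.02 and 0.30. Of 15 tested matrix receptors other than integrins, 3 fell, 2 rose and 10 did not pass (33.3% called, against 23.5% of all genes; median log2 fold change -0.016). Of the syndecans, which carry heparan sulfate, SDC4 fell by 0.74 and SDC3 by 0.56 on the log2 scale. CD44, the hyaluronan receptor, fell by 0.49 on the log2 scale, and MRC2, a receptor that takes up collagen, rose from 33.5 ± 4.74 to 71.6 ± 10.2 CPM (log2 fold change 1.10, edgeR adjusted p = 9.26e-06).

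**Figure D5:**
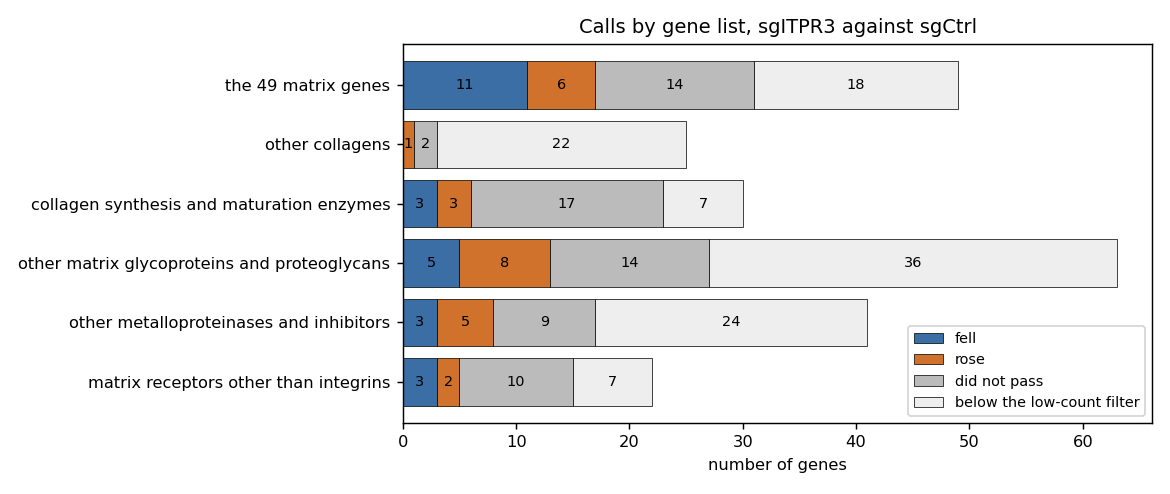
Number of genes (horizontal axis) that fell, rose, did not pass or were below the low-count filter in the set of 49 matrix genes and in the 5 further lists. In the set 11 fell and 6 rose, and in the list of other glycoproteins and proteoglycans 5 fell and 8 rose.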

How the data were processed

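Per the labels' protocols, the Lexogen 3' FWD kit was used on polyadenylated RNA. The values are whole-number counts per gene as the authors deposited them. The submitters' processing notes name STAR 2.6.0a, featureCounts 1.6.3, DESeq2 and GRCh38. The sources used here do not give the annotation, the strand setting or how mouse and multiply aligned reads were handled. Symbols came from an identifier table (58472 of 58884 matched) and positions from GENCODE 29.

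Counts were analysed in R 4.3.3 with edgeR 4.0.16 (filterByExpr with a minimum count of 10, TMM, quasi-likelihood F test, no covariate). The 15804 genes tested held 99.8% to 99.9% of counts, and TMM factors were 0.961 to 1.03. Adjusted p-values are those of Benjamini and Hochberg, taken across the whole table. SE is the absolute log2 fold change over the square root of F. Libraries of a group correlated at 0.991 to 0.995 (log2 of CPM + 1), and none repeats another (chi-square per degree of freedom 5.51 to 10.6). In data simulated for this comparison with 200 of 15804 genes changed, 58.5% of 1.5-fold, 75.5% of 2-fold and 93.5% of 4-fold changes were recovered, and 5.65%, 5.03% and 6.50% of calls were false. In the data themselves 3717 genes were called, and the adjustment depends on that number, so recovery there can differ. Floors and intervals of counts cover counting error only.

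Members, lists, motifs and the ALB covariate were chosen with earlier results of these data known. Named with values in every library were members that passed with a change of at least 2-fold and the member with the most CPM of each class, and from each further list up to 4 called genes with the smallest p. Other values per library, and overlapping genes, were added after the values were seen. The alternatives used DESeq2 1.42.0, RLE scaling, a filter of 1 CPM in 3 libraries or none, limma-voom (limma 3.58.1), leaving out each library, the replicate number as a block and ALB as a covariate. Protein sequences were not used here.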

Additional observations from a re-analysis of the deposited data

How the results depend on the processing

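Of the 11 matrix genes that fell, 10 were also called lower in all 13 alternatives (COL16A1 was not), and of the 6 that rose, 4 were called higher in all 13 (COL1A1 and NID1 were not). Leaving out 1 library at a time gave 10 to 12 falls and 5 to 6 rises among the matrix genes. Over all genes, where 1882 fell and 1835 rose, it gave 1196 to 2140 lower and 1135 to 2121 higher, with the fewest without sgITPR3 replicate 2, and ALB as a covariate gave 982 lower and 1000 higher, a drop whose cause was not tested. With ALB as a covariate the matrix genes called were 11 lower and 4 higher. The sign turned for 4 genes that had not passed, with log2 fold changes of 0.037 for COL4A2, -0.11 for COL9A3, -0.0074 for COL17A1 and -0.00052 for FBLN1, and the cause was not tested. Among genes that had not passed, log2 fold changes over the fits without 1 library ran from -0.32 to 0.014 for COL5A1, -0.57 to 0.047 for COL6A2, -0.0011 to 0.18 for COL9A3, -0.13 to 0.028 for HSPG2 and -0.061 to 0.35 for MMP9. The replicate numbers are not shown to pair the samples: deviations of same-numbered libraries correlated at -0.0496 to 0.132, and 3 of 6 libraries correlated best with their own number. With the replicate block 13 matrix genes fell and 6 rose, and the block gave 1981 lower and 1896 higher over all genes. TIMP1 and COL18A1 were the matrix genes added. RLE scaling, the filter of 1 CPM and limma-voom each gave 11 falls and 6 rises. Depth limits the 18 untested genes, with 0 to 74 counts in all.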
